A study of Mus musculus with 20 samples.

Results

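Translation initiation factors are the proteins that bring the small ribosomal subunit, the initiator tRNA and the capped mRNA together and find the start codon. Their genes were taken from the count table by symbol, as every entry whose name begins with Eif1 to Eif6, without the eIF2 kinases (Eif2ak genes) and without Eif2s3y. This gave 52 genes of the 25208 listed, out of 57 symbols that match the name. Of the 52, 49 passed the filter on low counts. Eif3j1 and Eif3j2 had 0 counts in all 20 libraries. Eif2c5, which is in the set by its name alone and in none of the role groups below, never exceeded 7 counts. Eif3j1 and Eif3j2 are near-identical copies, so a count of 0 can reflect how reads shared by copies were counted.

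The libraries came from mouse preimplantation embryos grown from the zygote in culture and sequenced by the Smart-seq2 protocol. Embryos labelled control (genotype WT) and P300 siRNA (genotype P300 knockdown) were available at 4 stages, which are the late 2-cell stage, the 4-cell stage and the early and late 8-cell stages. The late 8-cell stage also holds embryos labelled P300 siRNA I1394G or P300 siRNA NaCr, whose genotypes read P300 knockdown I1394G rescue and P300 knockdown NaCr rescue. The labels do not spell out what I1394G and NaCr stand for. Each of the 10 groups holds 2 libraries. The labels do not say how many embryos entered a library, what the control embryos were given, or whether the 2 libraries of a group came from separate collections. P values therefore measure the spread between these libraries, which may be technical. p300, encoded by Ep300, is a lysine acyltransferase that acts on histones at active genes.

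Initiation begins when eIF2, bound to GTP, carries the initiator tRNA to the small subunit, where eIF1, eIF1A, eIF3 and eIF5 assemble with it. The cap is bound by eIF4E, which with the scaffold eIF4G and the helicase eIF4A forms eIF4F, and after start codon recognition eIF2 is recharged with GTP by eIF2B. In the early mouse embryo, proteins are first made from mRNA stored by the oocyte, and stored messages are translated under the control of eIF4E-binding proteins until the embryo's own transcripts take over.

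Among 40 members with a window in the RefSeq promoter table (build GRCm38.p6, whereas the submitters' notes name mm9), the 250 bases before the start were searched on both strands for 3 short motifs that bind widely used activators. Where a gene has several starts, the window furthest upstream was used. The E-box CACGTG was present in 7 of 40 member windows (17.5%), against 6.04% of all 27025 gene windows of that length. The ETS motif CCGGAAGT was present in 3 of 40 (7.5%), against 2.92% of all windows, and the CRE motif TGACGTCA in 0 of 40, against 1.60%. The E-box and the ETS motif do not overlap in their letters in any of these windows. The 3 windows below were picked among those that carry such matches and belong to members with a large difference at the late 8-cell stage, Eif4h and Eif4a1 lower and Eif5a2 higher in siRNA embryos. Other windows with matches are not shown, among them that of Eif3d. It has an ETS motif beginning 71 bases before its start and a late 8-cell log2 fold change of -1.20. Capitals mark the motif matches, and a match is a run of letters and not evidence of binding.
Eif4h, chr5:134639410-134639659, minus strand: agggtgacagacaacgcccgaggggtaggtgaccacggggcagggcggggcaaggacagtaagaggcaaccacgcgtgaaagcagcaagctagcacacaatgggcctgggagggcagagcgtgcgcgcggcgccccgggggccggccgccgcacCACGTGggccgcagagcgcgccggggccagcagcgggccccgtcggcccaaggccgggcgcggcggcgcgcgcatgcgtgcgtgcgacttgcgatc
Eif4a1, chr11:69672424-69672673, minus strand: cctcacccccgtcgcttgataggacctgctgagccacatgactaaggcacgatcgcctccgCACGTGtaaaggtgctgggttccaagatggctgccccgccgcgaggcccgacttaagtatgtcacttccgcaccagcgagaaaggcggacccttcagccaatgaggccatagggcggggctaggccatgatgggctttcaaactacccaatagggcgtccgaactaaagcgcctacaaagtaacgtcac
Eif5a2, chr3:28781027-28781276, plus strand: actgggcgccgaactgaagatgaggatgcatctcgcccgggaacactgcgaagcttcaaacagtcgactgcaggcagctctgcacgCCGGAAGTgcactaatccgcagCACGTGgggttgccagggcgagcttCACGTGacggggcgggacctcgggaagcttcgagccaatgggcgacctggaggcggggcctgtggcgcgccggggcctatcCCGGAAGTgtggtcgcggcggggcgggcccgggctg
The E-box of Eif4h begins 96 bases before the start and that of Eif4a1 189 bases before it. Eif5a2 holds E-boxes beginning 142 and 117 bases before its start and ETS motifs beginning 164 and 36 bases before it.

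Several facts of the whole series touch the results. Library totals ran from 3202332 to 24785201 counts, and the 52 members took 68134 to 702903 of them. The lowest total was that of late 8-cell siRNA replicate 1, while replicate 2 of that group had 20252948 counts. At equal depth these 2 libraries held 15920 and 16801 detected genes. The targeted gene Ep300 had a log2 fold change of -2.15 in siRNA against control embryos at the 4-cell stage (adjusted p = 0.00128) and -2.15 at the early 8-cell stage (adjusted p = 0.000819). At the late 2-cell stage it was -1.69 (adjusted p = 0.318) and at the late 8-cell stage -0.36 (adjusted p = 0.5), where control embryos had themselves only 22 and 15.2 CPM (counts relative to the TMM-scaled library size), so the siRNA label could not be checked by Ep300 at the late 8-cell stage. Of 10 preimplantation embryo markers at least 9 were detected in every group. The 9 cumulus and granulosa markers summed to between 22.4 and 73.4 CPM in every library and came mostly from Amhr2, and the 5 blood and stroma markers summed to at most 1.69 CPM. The late 2-cell libraries were deposited apart from the rest, and their FPKM columns sum to 394621 to 399622 against 495248 to 585216 elsewhere, so stage and processing cannot be told apart between late 2-cell and later embryos.

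Initiation factor mRNA made up a small and changing share of all counts, a measure that needs no scaling between libraries. The 52 genes together held 1.16% and 1.21% of the counts in the late 2-cell control libraries and 2.95% and 2.99% in the 4-cell control libraries. The early and late 8-cell controls were at 2.80% to 2.83% and 2.77% to 2.78%. In siRNA embryos the share was 1.27% and 1.30% at the late 2-cell stage, 2.73% and 2.84% at the 4-cell stage, 2.75% and 2.79% at the early 8-cell stage, and 2.38% and 2.17% at the late 8-cell stage. With I1394G it was 2.48% and 2.51%, and with NaCr 2.65% and 2.66%. At the late 8-cell stage both siRNA libraries lay below every other library, and the treated groups lay between them and the controls. In bulk libraries fewer cells of a type and less RNA per cell cannot be told apart, and these shares say nothing of RNA amounts per embryo.

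In control embryos the step from late 2-cell to 4-cell moved nearly the whole family. Of 49 tested members 39 rose and 4 fell, where 27% of all tested genes rose and 34.2% fell. The median log2 fold change was 1.95 for the members and -0.40 for all genes. With library totals in place of TMM scaling factors (an alternative chosen after seeing the data), the medians were 1.55 and -0.80, and 35 members rose and 6 fell. All 12 tested eIF3 subunits rose, with log2 fold changes from 1.74 to 5.08.

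The 4 rises with the smallest adjusted p were in members that had been scarce. Eif3m, a subunit of the scaffold complex eIF3, went from 21.5 and 21.9 CPM in the late 2-cell controls to 770 and 699 CPM in the 4-cell controls (log2 fold change 5.08 ± 0.18, SE, adjusted p = 4.78e-12). Eif3d, whose product can itself bind the cap of some mRNAs, went from 15.2 and 16.8 to 341 and 297 CPM (4.32 ± 0.19, adjusted p = 2.41e-11). Eif1a, one of a pair of genes for the scanning factor eIF1A, went from 36.1 and 46.0 to 985 and 848 CPM (4.48 ± 0.23, adjusted p = 4.34e-11). Eif3l went from 28.4 and 20.4 to 612 and 405 CPM (4.38 ± 0.24, adjusted p = 7.12e-11). The stages did not overlap in any of these, and each rise also passed under every alternative and with each library left out. Core members of each step rose as well, among them Eif2s1 (alpha subunit of eIF2, log2 fold change 2.84), Eif2s3x (gamma subunit, 1.22), Eif2b5 (catalytic subunit of eIF2B, 2.33), Eif3a (2.86), Eif4e (1.61), Eif4a1 (2.11), Eif4a2 (1.63), Eif5 (2.08), Eif5a (1.0), Eif6 (1.41), Eif1ax (2.04) and Eif4ebp1 (2.61). Eif4g1 rose by 0.50 (adjusted p = 0.0359), a call lost without late 2-cell replicate 1, late 2-cell replicate 2 or 4-cell replicate 2 of the controls. It was also lost in 5 of 7 other settings, among them library totals, the DESeq2 test and limma on FPKM. Eif4g2 rose by 0.81 (adjusted p = 0.0011), which did not pass with library totals (0.41) or with limma on FPKM. The members that missed the threshold were Eif2b4, Eif4a3l1, Eif4g3, Eif4ebp2, Eif5a2 and Eif2d.

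The 4 members that fell were Eif4e1b, Eif4e3, Eif4enif1 and Eif1b. Eif4e1b, the cap-binding protein of oocytes, had 125 and 96.6 CPM in the late 2-cell controls and 1.65 and 1.51 CPM at the 4-cell stage (log2 fold change -6.13 ± 0.53, adjusted p = 1.61e-08). Eif4e3, a further eIF4E relative, had 268 and 283 CPM and then 5.99 and 9.49 CPM (-5.13 ± 0.41, adjusted p = 6.78e-09). Eif4enif1, which encodes 4E-T, a binding partner of eIF4E in stored mRNA particles, had 349 and 372 CPM and then 43.4 and 72.9 CPM (-2.63 ± 0.25, adjusted p = 7.71e-08). Eif1b, a close copy of Eif1, had 78.2 and 89.4 CPM and then 35.1 and 34.3 CPM (-1.27 ± 0.27, adjusted p = 0.000601).

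**Figure D1:**
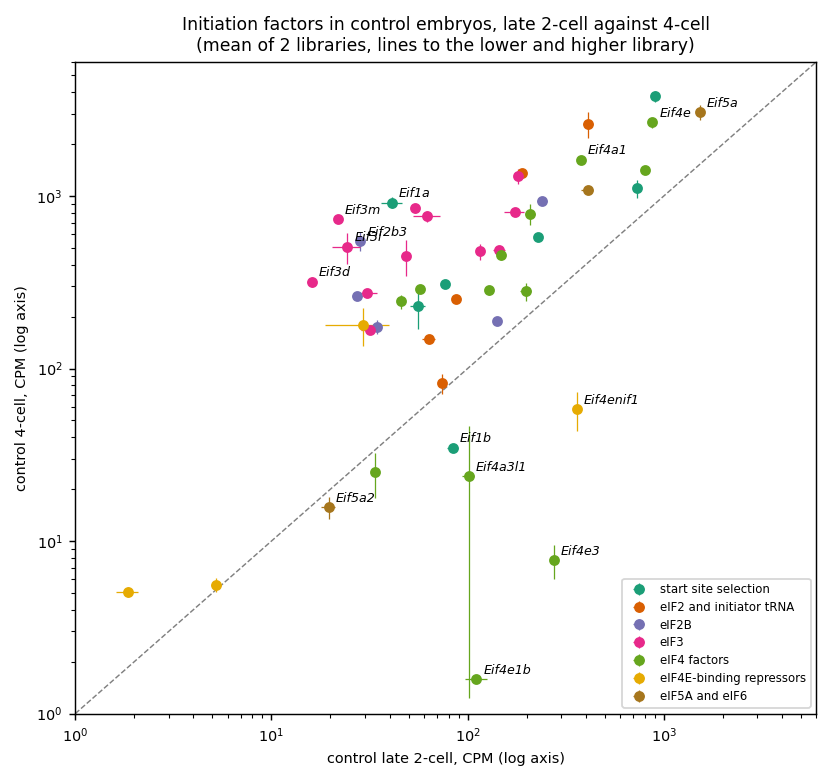
Each point is 1 of the 49 tested initiation factor genes, with its mean CPM in late 2-cell controls on the x axis and in 4-cell controls on the y axis, both on log axes, and lines to the lower and the higher of the 2 libraries. Most points lie above the dashed line of equal levels. Below it lie Eif4e1b, Eif4e3, Eif4enif1 and Eif1b, which were called as fallen, and Eif4a3l1, Eif4g3 and Eif5a2, which were not called.

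Eif4e had the highest level per length of its family at both stages, and its share grew. Per length of transcript (FPKM, the authors' fragment counts scaled for transcript length and depth), Eif4e made up 48.8% to 51.2% of the summed level of Eif4e, Eif4e1b, Eif4e2 and Eif4e3 in late 2-cell controls and 90.6% to 91.1% in 4-cell controls. Eif4e3 went from 31.1% to 32.9% down to 0.446% to 0.614%, and Eif4e1b from 13.4% to 17.3% down to 0.115% to 0.145%. Eif4e2, which encodes a cap-binding protein known as a repressor, went from 2.57% to 2.76% up to 8.29% to 8.69%. The siRNA embryos had the same order of the 4 genes at the late 2-cell stage, with Eif4e at 54.6% to 56.5% and Eif4e1b at 9.76% to 11.8%. These shares are descriptions and were not tested.

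**Figure D2:**
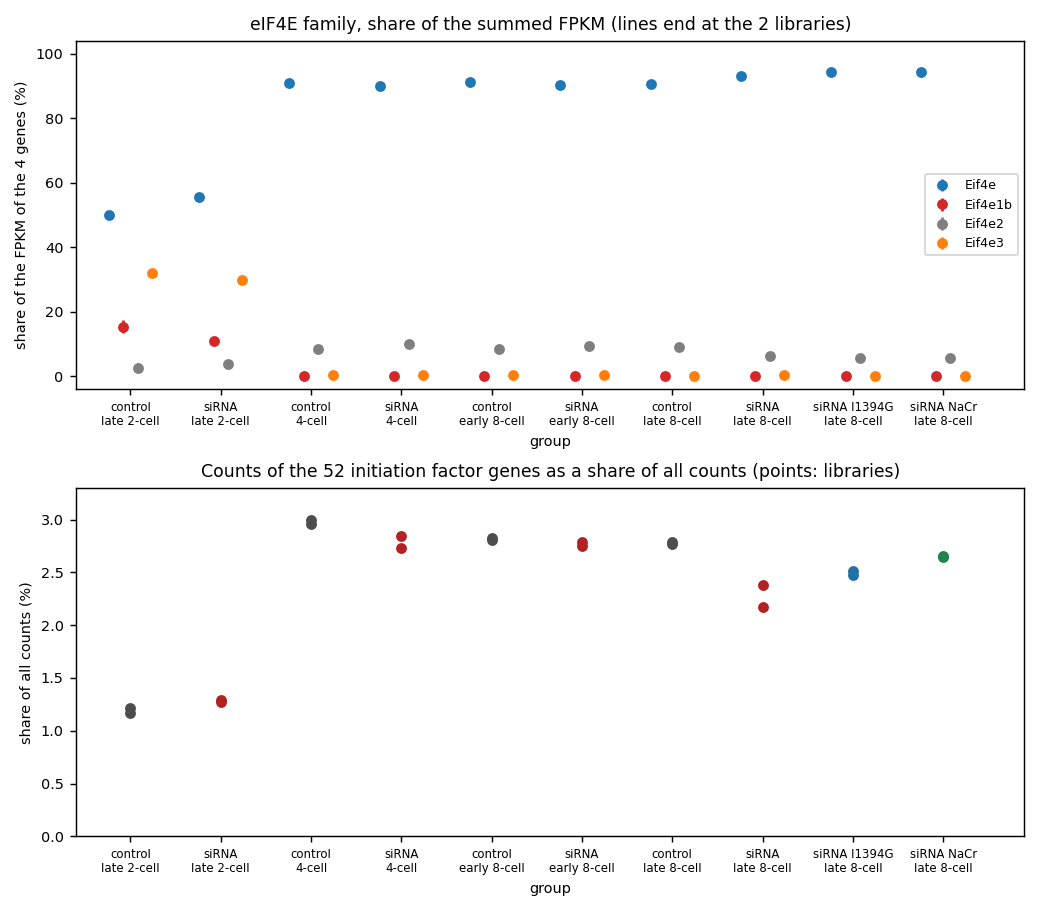
The upper panel gives the share of the summed FPKM of the 4 eIF4E family genes in each group as the midpoint and the 2 libraries (1 library for control early 8-cell), and the lower panel the counts of all 52 members as a percentage of all counts, 1 point per library. Eif4e holds 48.8% to 56.5% of the family at the late 2-cell stage and at least 89.6% of it later, and the late 8-cell siRNA libraries have the lowest share of counts of the later stages, 2.17% and 2.38%.

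Other pairs of copies shifted as well. Eif1a made up 47.2% to 57.7% of the FPKM of the Eif1a and Eif1ax pair in late 2-cell controls and 83.6% to 88.3% in 4-cell controls. Of the helicase pair, Eif4a2 was the minor gene in every group, at 18% to 19.6% of the pair in late 2-cell controls, 13.6% to 14.8% in 4-cell controls and 21.0% to 22.6% in late 8-cell controls. Eif4g2, the scaffold without an eIF4E-binding site, was 71.7% to 72.5% of the 3 Eif4g genes in late 2-cell controls and 73.8% to 76.6% in late 8-cell controls, and Eif4g3 stayed between 0.94% and 2.89% in all libraries used. Eif5a had the highest FPKM of all members in 19 of 20 libraries. The exception was control early 8-cell replicate 2, whose FPKM column correlated with its counts at only 0.895 over well-expressed genes against at least 0.999 in the other 19, and which was left out of the shares.

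From the 4-cell to the early 8-cell stage 0 of 49 members were called in control embryos by edgeR, with 4 at an unadjusted p under 0.05, where 0.62% of all genes rose and 0.506% fell. DESeq2 also called 0. From the early to the late 8-cell stage 6 members rose and 7 fell, where 15% of all genes rose and 11.2% fell, and the medians were -0.15 for members and 0.11 for all genes. Eif2d, which can deliver tRNA without eIF2, rose from 93.8 and 74.2 to 224 and 258 CPM (log2 fold change 1.52 ± 0.20, adjusted p = 6.4e-05). Eif3d rose from 352 and 314 to 673 and 693 CPM (1.04 ± 0.17, adjusted p = 0.000276), Eif4a2 by 1.01 and Eif5a by 0.70, the last of which was lost without early 8-cell control replicate 2. Eif1, a gatekeeper of start codon choice, fell from 1059 and 1086 to 518 and 491 CPM (-1.09 ± 0.18, adjusted p = 0.000292), and Eif5b, the GTPase that joins the large subunit, from 424 and 543 to 266 and 206 CPM (-1.04 ± 0.19, adjusted p = 0.000712). Of the further calls, Eif3c (-0.62), Eif5 (-0.54), Eif6 (-0.59), Eif2b5 (0.52) and Eif4a1 (0.43) were each lost with at least 3 of the 4 libraries left out in turn, and the count fell to 6 without late 8-cell control replicate 1 or 2 and to 8 without early 8-cell control replicate 1.

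In siRNA against control embryos, initiation factor genes were called lower at each stage after the late 2-cell stage, and most of all at the late 8-cell stage. At the late 2-cell stage 0 of 49 members were called by edgeR, with 4 at an unadjusted p under 0.05, where 0.00602% of all tested genes rose and 0% fell; DESeq2 called 1 member. The member nearest to a call there was Eif3m, at 21.5 and 21.9 CPM in controls and 34.3 and 41.5 CPM in siRNA embryos (log2 fold change 0.81 ± 0.16, adjusted p = 0.232). At the 4-cell stage 1 member rose and 11 fell (22.4% of members), where 7.77% of all genes rose and 7.25% fell. With only the 4 libraries compared in the fit 0 members were called at the 4-cell stage, and 59 of all genes, so every 4-cell call given for a gene below was lost in that fit. At the early 8-cell stage 0 rose and 8 fell (16.3%), where 8.21% of all genes rose and 8.3% fell. At the late 8-cell stage 3 rose and 28 fell (57.1%), where 13.6% of all genes rose and 14.3% fell.

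The median log2 fold change of the members was 0.10, -0.29, -0.18 and -0.67 at these 4 stages, beside -0.04, 0.00, 0.04 and 0.06 for all genes. Averaged over the stages, 1 member rose and 22 fell, where 15.9% of all genes rose and 14.8% fell. The response differed between stages in 18 members by a joint test, where 16.3% of all genes did. Of the 49, 30 were lower in at least 1 stage and 4 were higher in at least 1 stage, with 2 of them counted in both. A further 17 had no call at any stage. Such tallies across stages, and the list of genes that follows, have no counterpart over all genes. They describe the members, and nothing is read from them about the family against other genes. Eif2b5, Eif4a2, Eif4h, Eif5b and Eif6 were lower at all 3 later stages, of which the early 8-cell calls of Eif4h and Eif6 and the 4-cell call of Eif6 were lost with library totals in place of TMM scaling.

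How many members fell depended on how libraries were scaled. Of all genes called at the late 8-cell stage 2266 were higher and 2379 lower with TMM factors, and 3914 and 1018 with library totals; at the early 8-cell stage the numbers were 1363 and 1378, then 2348 and 864, at the 4-cell stage 1290 and 1204, then 1827 and 822, and averaged over the stages 2643 and 2457, then 4524 and 1289. With library totals in place of TMM factors the median of all genes at the late 8-cell stage was 0.54 and that of the members -0.19, and 6 members rose and 12 fell. The medians at the 4-cell stage were 0.16 for all genes and -0.11 for the members, with 2 risen and 6 fallen, and at the early 8-cell stage 0.32 and 0.10, with 1 risen and 2 fallen. DESeq2 size factors gave 3 risen and 23 fallen at the late 8-cell stage, with a median of 0.20 for all genes and -0.52 for members. Of the 49 members, 39 lay below the median of all genes at the late 8-cell stage and 36 at the early 8-cell stage. A change of scaling moves all genes of a comparison by nearly the same amount, so these 2 counts are no check of it. Averaged over the stages, the member median was -0.24 with TMM factors and 0.02 with library totals.

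**Figure D3:**
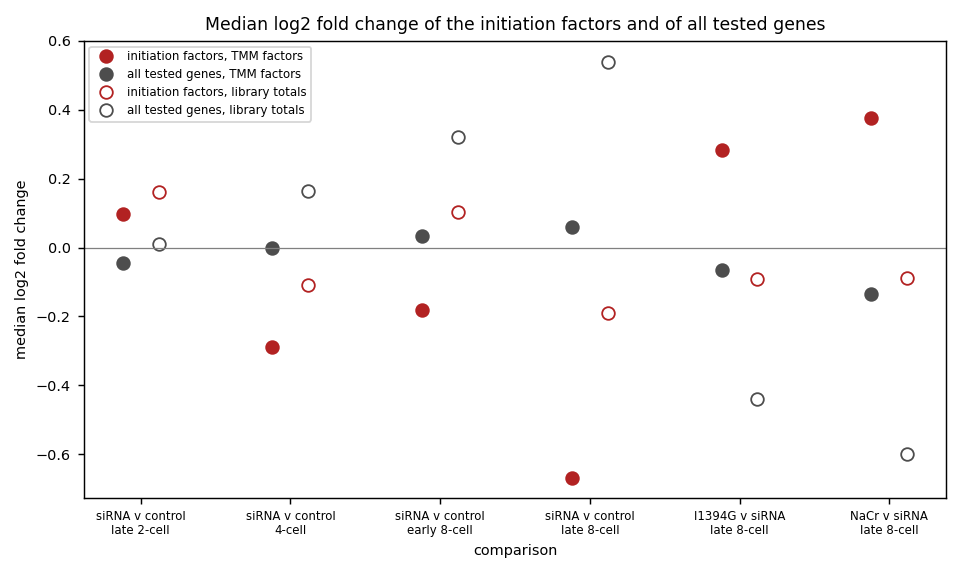
The y axis gives the median log2 fold change of the 49 initiation factors (red) and of all 16603 tested genes (grey) in each comparison, with TMM factors (filled) and with library totals (open). In the late 8-cell siRNA comparison the medians are -0.67 and 0.06 with TMM factors and -0.19 and 0.54 with library totals: the scaling moves both points together, so their gap is no check of it.

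Marker levels and detected genes moved with siRNA at the same stages. At the 4-cell stage the 10 preimplantation embryo markers summed to 8946 to 10192 CPM in controls and 5083 to 6335 CPM in siRNA libraries, with 5 of 10 lower. At the early 8-cell stage they summed to 9437 to 10907 and 4861 to 4979 CPM, with 7 of 10 lower, and the late 2-cell markers to 4.93 to 9.55 and 23.3 to 35.6 CPM, with 1 of 5 higher. Of the cumulus and granulosa markers 0 of 6 tested were called at these 2 stages. The late 8-cell siRNA libraries stood apart from the other late 8-cell libraries as follows. At an equal depth of 3202332 counts they held 16360 ± 623 (SD, n = 2) detected genes, beside 14449 ± 39.1 in controls, 15051 ± 74.4 with I1394G and 14661 ± 19 with NaCr. The 10 preimplantation embryo markers summed to 3562 to 4157 CPM in siRNA libraries, 8514 to 9032 CPM in controls, 8034 to 8335 CPM with I1394G and 10093 to 10697 CPM with NaCr, with 7 of 10 lower in siRNA than in control embryos. The sums of these 10 came mostly from Dppa3 at every stage, here at 4327 and 5320 FPKM in siRNA libraries and 7612 and 7028 FPKM in controls. Krt8 overlapped between the siRNA and control libraries, at 108 and 75.9 against 71.3 and 88.6 FPKM. Krt18 did too, at 146 and 138 against 132 and 159 FPKM. The 5 late 2-cell markers summed to 29.3 to 149 CPM in late 8-cell siRNA libraries and 2.92 to 11.1 CPM in controls, beside 772 to 818 CPM in late 2-cell controls, with Zscan4f at 0 in both late 8-cell groups and 2 of 5 called higher. The 9 cumulus and granulosa markers summed to 28.7 to 41.8 CPM in late 8-cell siRNA libraries, with 2 of 9 at 0, and to 22.4 to 30.5 CPM in controls, with 6 of 9 at 0. Of the 6 of these that were tested, 3 were called higher in siRNA embryos. The part of these differences in the result was not tested. Leaving out a library gave 18 to 31 called members at the late 8-cell stage, 18 without control replicate 1.

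**Figure D4:**
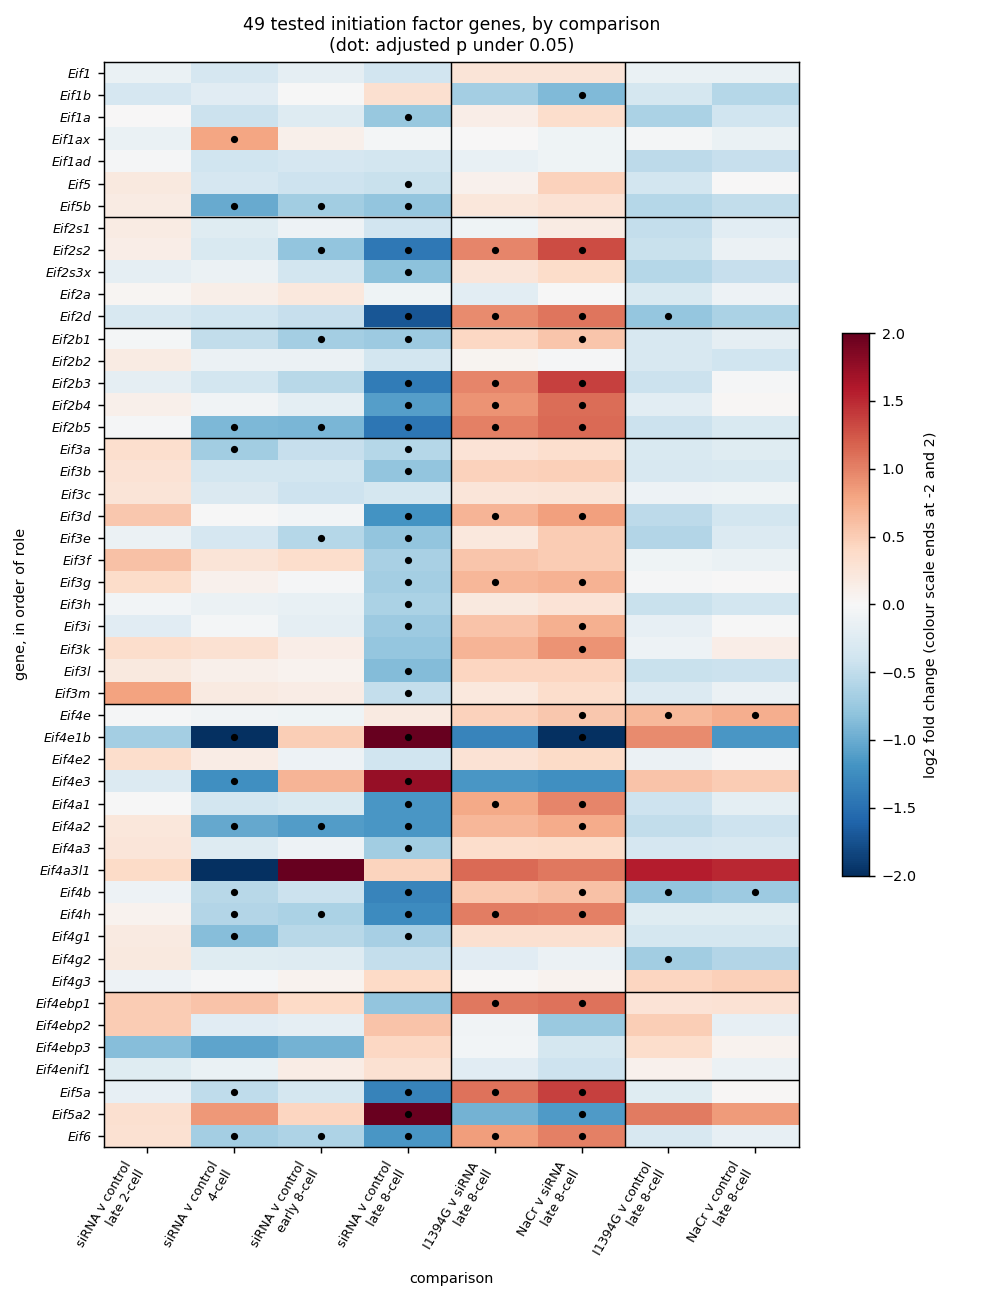
Rows are the 49 tested genes in the order of their roles, columns are comparisons, colour is the log2 fold change (TMM factors, scale ending at -2 and 2) and a dot marks an adjusted p under 0.05. The column for siRNA against control at the late 8-cell stage holds 31 dots, 28 of them on blue cells, and the columns of the treated groups against control hold 4 and 2.

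Among the start site factors, Eif5b was lower at all 3 later stages. It had 549 and 614 CPM in 4-cell controls against 259 and 321 CPM in siRNA embryos (log2 fold change -1.0 ± 0.19, adjusted p = 0.00229), 424 and 543 against 289 and 310 CPM at the early 8-cell stage (-0.69, adjusted p = 0.0173), and 266 and 206 against 155 and 120 CPM at the late 8-cell stage (-0.78, adjusted p = 0.00548). The groups did not overlap at any of the 3. The eIF1A copies went different ways. Eif1ax, which is X-linked, rose at the 4-cell stage, from 290 and 170 to 449 and 342 CPM (0.78 ± 0.25, adjusted p = 0.0448), and was at 345 and 324 against 392 and 259 CPM at the late 8-cell stage (-0.04). Eif1a fell at the late 8-cell stage, from 704 and 740 to 505 and 352 CPM (-0.75 ± 0.20, adjusted p = 0.00914), a call lost without control replicate 2 or siRNA replicate 2 and with library totals (-0.28, adjusted p = 0.27). The Eif1ax call at the 4-cell stage was lost without control replicate 2 or siRNA replicate 1, and with DESeq2 size factors. Beside it, Xist, the RNA that silences an X chromosome in female cells, was at 72.8 and 0.367 CPM in the 4-cell controls and 87.3 and 73.4 CPM in siRNA embryos; its part in the result was not tested. Eif5, which triggers GTP hydrolysis by eIF2, fell from 2444 and 2488 to 1987 and 1624 CPM at the late 8-cell stage (-0.45 ± 0.16, adjusted p = 0.0409). This was 0.03 with library totals, and the call was lost without control replicate 1, control replicate 2 or siRNA replicate 2.

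Of the 5 genes of eIF2 and initiator tRNA delivery, 3 were lower at the late 8-cell stage, where 14.3% of all genes were lower. Eif2s2, the beta subunit, had 3203 and 3365 CPM in late 8-cell controls and 1470 and 982 CPM in siRNA embryos (log2 fold change -1.42 ± 0.21, adjusted p = 0.000127), and 2632 and 3118 against 1666 and 1664 CPM at the early 8-cell stage (-0.79 ± 0.21, adjusted p = 0.0155). Eif2s1, the alpha subunit that stress kinases phosphorylate, was at 1107 and 1130 against 1022 and 700 CPM in late 8-cell embryos (-0.38, adjusted p = 0.158). Eif2s3x, the gamma subunit, fell from 225 and 214 to 149 and 101 CPM (-0.82, adjusted p = 0.0132), which was lost without control replicate 1, control replicate 2 or siRNA replicate 2, and was -0.34 with library totals. Like Eif1ax, which had no call at this stage, it is X-linked. Xist was at 13.19 and 6.67 FPKM in late 8-cell controls and 4.58 and 3.59 FPKM in siRNA embryos, and its part in the result was not tested. Eif2d fell from 224 and 258 to 71.9 and 75.3 CPM (-1.71 ± 0.21, adjusted p = 2.1e-05), and this held under every alternative and with each library left out. At the 4-cell stage 0 of the 5 genes of this group were called, and their log2 fold changes lay between -0.40 and 0.12.

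The exchange factor eIF2B had 4 of 5 subunits lower at the late 8-cell stage, where 14.3% of all genes were lower. Eif2b5, which encodes the catalytic subunit, had 190 and 159 CPM in 4-cell controls and 96.5 and 91.3 CPM in siRNA embryos (log2 fold change -0.89 ± 0.19, adjusted p = 0.00442). At the early 8-cell stage it had 150 and 196 against 99.95 and 84.2 CPM (-0.91 ± 0.19, adjusted p = 0.00294), and at the late 8-cell stage 247 and 251 against 89.5 and 93.9 CPM (-1.44 ± 0.19, adjusted p = 4.74e-05). The late 2-cell libraries overlapped, at 34.9 and 34.4 in controls and 36.8 and 31.2 CPM in siRNA embryos. Library totals kept the 3 calls, with -0.70, -0.62 and -0.96. The early 8-cell call was lost without control replicate 2, and with limma on FPKM with or without the unmatched FPKM values of that library. Eif2b3 fell from 482 and 444 to 181 and 169 CPM at the late 8-cell stage (-1.40 ± 0.21, adjusted p = 0.000105) and Eif2b4 from 199 and 199 to 87.6 and 98.0 CPM (-1.10 ± 0.19, adjusted p = 0.000487). Eif2b1, the alpha subunit and per length the most abundant of the 5 in all 19 libraries used, fell by 0.73 at the late and 0.68 at the early 8-cell stage, and Eif2b2 was at -0.37 (adjusted p = 0.121) at the late 8-cell stage. The early 8-cell call of Eif2b1 was lost without control replicate 2 or siRNA replicate 1, with library totals and in both limma fits. Per length, the ratio of the most to the least abundant subunit was 3.96 and 3.99 in late 8-cell controls and 7.24 and 5.48 in siRNA embryos.

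The eIF3 genes had 10 of 12 tested subunits lower at the late 8-cell stage, where 14.3% of all genes were lower. At each of the 4-cell and early 8-cell stages 1 of 12 was lower, beside 7.25% and 8.3% of all genes. The count of 10 rests on TMM factors. With library totals 12 members of the whole family fell at the late 8-cell stage, against 28 with TMM factors. Eif2d, Eif5a, Eif4b, Eif4a1, Eif2b5, Eif4a2 and Eif6, all outside eIF3, were among these 12. The late 8-cell log2 fold changes of the eIF3 genes ran from -1.20 to -0.35. Eif3d had the largest, from 673 and 693 to 277 and 316 CPM (-1.20 ± 0.17, adjusted p = 7.89e-05), after 341 and 297 against 294 and 342 CPM at the 4-cell stage and 352 and 314 against 341 and 299 CPM at the early 8-cell stage. Its response differed between stages (joint test, adjusted p = 0.00149). Eif3a, the largest subunit, fell from 1180 and 1430 to 769 and 844 CPM at the 4-cell stage (-0.69, adjusted p = 0.0112) and from 904 and 901 to 689 and 523 CPM at the late 8-cell stage (-0.58, adjusted p = 0.0175), the latter being -0.10 with library totals. The late 8-cell call was lost without control replicate 1, control replicate 2 or siRNA replicate 2, and the 4-cell call without control replicate 2 or siRNA replicate 1. Eif3e, at the early 8-cell stage 843 and 817 against 508 and 607 CPM (-0.57, adjusted p = 0.0484), was the subunit called there. Eif3c (-0.35) and Eif3k (-0.77, adjusted p = 0.0518) were the 2 without a call at the late 8-cell stage.

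Among the eIF4 factors the helicase genes and their helpers fell, and the cap-binding gene Eif4e did not pass the test. Eif4a2 had 490 and 424 CPM in 4-cell controls and 225 and 222 CPM in siRNA embryos (log2 fold change -1.03 ± 0.22, adjusted p = 0.00573), then 487 and 433 against 209 and 217 CPM at the early 8-cell stage (-1.11 ± 0.22, adjusted p = 0.00256) and 860 and 994 against 545 and 288 CPM at the late 8-cell stage (-1.16 ± 0.22, adjusted p = 0.00115). All 3 calls held with each library left out and with library totals, and all 3 were lost with limma on FPKM. The early 8-cell call was kept once limma ran without the unmatched FPKM values of the early 8-cell controls. Eif4a1, the main helicase gene, fell at the late 8-cell stage, from 1913 and 2010 to 937 and 811 CPM (-1.17 ± 0.15, adjusted p = 3.55e-05). Eif4b and Eif4h, whose products stimulate the helicase, fell there from 233 and 207 to 87.9 and 88.8 CPM (-1.32 ± 0.17, adjusted p = 3.52e-05) and from 370 and 344 to 132 and 165 CPM (-1.26 ± 0.17, adjusted p = 5.59e-05). Eif4e was at 1894 and 1945 CPM in late 8-cell controls and 2358 and 2005 CPM in siRNA embryos (0.18 ± 0.16, adjusted p = 0.407). Eif4a3, the helicase of the exon junction complex, fell by 0.69 (adjusted p = 0.0107); its copy Eif4a3l1, whose counts may include reads of Eif4a3, ranged from 0.628 to 142 CPM over all libraries and was not called between siRNA and control at any stage.

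The scaffold Eif4g1 fell at the 4-cell stage, from 248 and 312 to 149 and 162 CPM (log2 fold change -0.85 ± 0.20, adjusted p = 0.00926), and at the late 8-cell stage, from 253 and 206 to 156 and 134 CPM (-0.67, adjusted p = 0.0191). The first call was lost without control replicate 2 or siRNA replicate 1, and the second without control replicate 1 or siRNA replicate 2 and with library totals (-0.19). Eif4g2 was at 1067 and 1021 against 908 and 602 CPM in late 8-cell embryos (-0.47, adjusted p = 0.0677), and Eif4g3 at 19.1 and 19.4 against 25.5 and 25.2 CPM (0.40, adjusted p = 0.38). Eif4e3 fell at the 4-cell stage, from 5.99 and 9.49 to 3.49 and 3.23 CPM (-1.23, adjusted p = 0.045), and rose at the late 8-cell stage, from 1.13 and 1.88 to 3.98 and 5.60 CPM (1.74, adjusted p = 0.00606). Eif4e1b was almost absent after the late 2-cell stage, so its calls rest on few reads. The 4-cell controls had 16 and 33 counts and siRNA libraries 1 and 4 (-2.86, adjusted p = 0.0112), a call lost without siRNA replicate 2. The late 8-cell controls had 1 and 3 counts and siRNA libraries 0 and 17, a log2 fold change of 2.26 (adjusted p = 0.0432) that became -3.59 without siRNA replicate 2 and was not called without either control.

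The repressors of eIF4E had no call between siRNA and control embryos at any of the 4 stages. Eif4ebp1, the most abundant of the 3 genes for 4E-BPs, had 277 and 334 CPM in late 8-cell controls and 119 and 233 CPM in siRNA embryos (log2 fold change -0.79 ± 0.32, adjusted p = 0.0739). Eif4ebp2 stayed between 2.18 and 9.35 CPM and Eif4ebp3 between 0.875 and 8.25 CPM in all libraries. Their late 8-cell differences were 0.57 ± 0.56 and 0.41 ± 0.59, with wider errors than those of abundant members. Eif4enif1 was at 34.1 and 29.3 against 32.7 and 44.9 CPM in late 8-cell embryos (0.30, adjusted p = 0.38).

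Eif5a and its copy Eif5a2 moved in opposite directions. eIF5A helps the ribosome past difficult stretches and is the protein known to carry hypusine. Eif5a fell from 4841 and 4942 CPM in late 8-cell controls to 1861 and 2025 CPM in siRNA embryos (log2 fold change -1.33 ± 0.16, adjusted p = 2.28e-05). Eif5a2 rose from 12.9 and 13.2 to 63.7 and 39.6 CPM (1.97 ± 0.35, adjusted p = 0.000589). Both calls held under every alternative and with each library left out. Per length, Eif5a2 went from 0.107% of the pair in both controls to 0.778% to 1.36% in siRNA embryos. At the 4-cell stage Eif5a fell from 3349 and 2764 to 2018 and 2302 CPM (-0.50, adjusted p = 0.0425), a call that was lost without control replicate 1, siRNA replicate 1 or siRNA replicate 2, and Eif5a2 was at 18.1 and 13.4 against 31.9 and 25.2 CPM without a call.

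Eif6, which keeps the ribosomal subunits apart, fell from 1136 and 1037 to 681 and 671 CPM at the 4-cell stage (log2 fold change -0.68 ± 0.19, adjusted p = 0.024). It fell from 1042 and 1187 to 755 and 700 CPM at the early 8-cell stage (-0.62, adjusted p = 0.0353) and from 767 and 713 to 281 and 379 CPM at the late 8-cell stage (-1.16 ± 0.19, adjusted p = 0.000331). At the late 2-cell stage it was at 380 and 438 in controls and 467 and 540 CPM in siRNA embryos. The late 8-cell call held with each library left out and with library totals (-0.68). The 4-cell call was lost without control replicate 1, siRNA replicate 1 or siRNA replicate 2, and the early 8-cell call without control replicate 2, siRNA replicate 1 or siRNA replicate 2. Across the family the number called at the 4-cell stage was 11 and 6 when control replicate 1 or 2 was left out, and 4 and 7 when siRNA replicate 1 or 2 was. At the early 8-cell stage it was 1 when control replicate 2 was left out, and 3 and 4 when siRNA replicate 1 or 2 was.

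**Figure D5:**
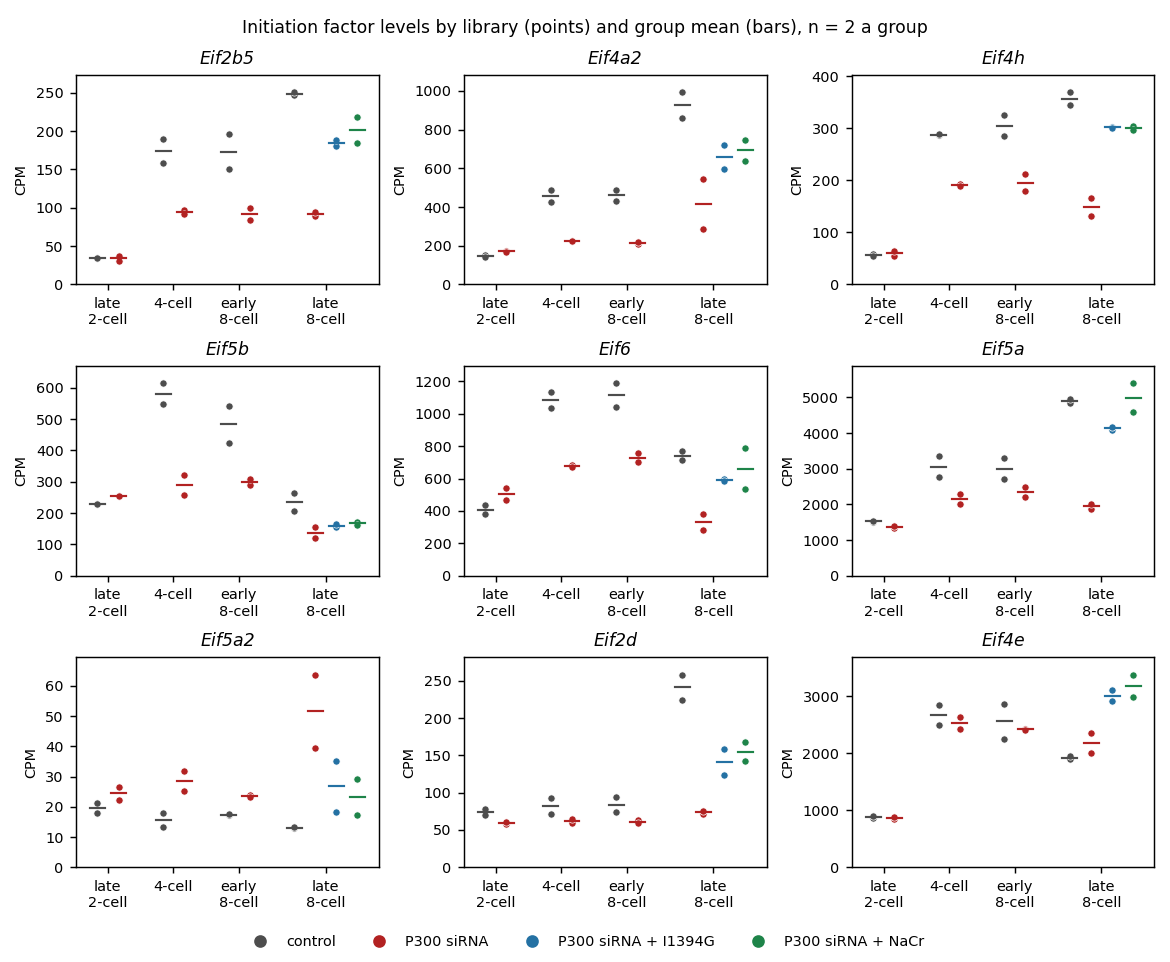
Each panel gives the CPM of 1 gene, with the 2 libraries of a group as points and their mean as a bar, on an axis from 0, in the order of the stages. In Eif2b5, Eif4h, Eif6, Eif5a and Eif2d the late 8-cell siRNA points lie below all other late 8-cell points, Eif5a2 has them at the top, and Eif4e is highest with I1394G and NaCr.

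The I1394G and NaCr groups were compared with siRNA and with control embryos of the late 8-cell stage. These comparisons share libraries with each other and with siRNA against control, so a library that is low by chance moves all that use it, and the values are given side by side only. Against siRNA embryos, I1394G embryos had 12 members higher and 0 lower, where 6.19% of all genes were higher and 4.58% lower. NaCr embryos had 18 higher and 3 lower, where 8.77% of all genes were higher and 6.57% lower. The member medians were 0.28 and 0.38 beside -0.07 and -0.13 for all genes with TMM factors, and turned to -0.09 and -0.09 beside -0.44 and -0.60 with library totals, where 5 members were higher and 4 lower with I1394G and 8 higher and 6 lower with NaCr. The genes called over the whole table split into 1028 higher and 761 lower with I1394G and 1456 and 1090 with NaCr, and with library totals into 345 and 1811, and 489 and 2748. Of the 49 members 10 and 7 lay below the median of all genes, a position that a change of scaling cannot move much.

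Eif5a was at 1861 and 2025 CPM in siRNA embryos, 4087 and 4179 CPM with I1394G (log2 fold change against siRNA 1.09 ± 0.16, adjusted p = 0.000826) and 4595 and 5393 CPM with NaCr (1.36 ± 0.16, adjusted p = 0.000115). Eif2b5 was at 89.5 and 93.9, 181 and 189 (1.01, adjusted p = 0.00312), and 185 and 218 CPM (1.13, adjusted p = 0.000788). Eif2b3 was at 181 and 169 CPM in siRNA embryos, 338 and 349 with I1394G (0.98, adjusted p = 0.0059), and 480 and 426 CPM with NaCr (1.37, adjusted p = 0.00042). In all 3 genes both libraries of each treated group lay above both siRNA libraries. Eif4a1 was at 1566 and 1381 CPM with I1394G (0.75, adjusted p = 0.00417), a call lost without I1394G replicate 1 and with library totals, and at 1760 and 1684 CPM with NaCr (0.98, adjusted p = 0.00047). Eif4h was at 303 and 301 CPM with I1394G (1.02, adjusted p = 0.00156) and Eif2s2 at 3257 and 2808 CPM with NaCr (1.31, adjusted p = 0.000686). The repressor Eif4ebp1 was higher in both, at 362 and 376 CPM with I1394G (1.06, adjusted p = 0.042) and 384 and 363 CPM with NaCr (1.08, adjusted p = 0.0296), calls lost with library totals and without siRNA replicate 1 or either treated library. Eif6 was higher by 0.84 (adjusted p = 0.0105) and 1.0 (adjusted p = 0.00224), neither of which passed with library totals (0.46 and 0.53).

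Members lower with NaCr than in siRNA embryos were Eif5a2, at 29.3 and 17.4 CPM (log2 fold change -1.13, adjusted p = 0.0345), Eif1b, at 19.6 and 26.9 against 36.9 and 48.4 CPM (-0.89, adjusted p = 0.0357), and Eif4e1b, at 1 and 0 counts against 0 and 17 (-3.41, or 2.44 without siRNA replicate 2). The Eif5a2 call was lost without siRNA replicate 1 or NaCr replicate 2, and that of Eif1b without siRNA replicate 2, NaCr replicate 1 or NaCr replicate 2. With I1394G the 2 libraries of Eif5a2 were at 35.2 and 18.3 CPM. Over the family, the count with I1394G was 6 and 5 without I1394G replicate 1 and 2, and with NaCr 11 and 8 without NaCr replicate 1 and 2. Between NaCr and I1394G embryos 0 of the 49 members were called by edgeR and 0 by DESeq2, with 1 at an unadjusted p under 0.05, where 0% of all genes were higher and 0% lower.

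Against control embryos, 4 members were called with I1394G and 2 with NaCr. With I1394G 1 was higher and 3 lower, where 1.99% of all genes were higher and 1.18% lower (331 and 196 genes, or 398 and 129 with library totals), and with NaCr 1 was higher and 1 lower, where 1.07% were higher and 0.5% lower. Eif4e, at 1894 and 1945 CPM in controls, was at 3109 and 2917 CPM with I1394G (log2 fold change 0.65 ± 0.16, adjusted p = 0.0309) and at 2992 and 3379 CPM with NaCr (0.73 ± 0.16, adjusted p = 0.0226). The treated libraries lay above all control and siRNA libraries of the stage, and Eif4e was also called higher with NaCr than in siRNA embryos (0.55, adjusted p = 0.0255), a call lost with library totals (0.08) and without siRNA replicate 2 or either NaCr library. Eif4b was at 127 and 127 CPM with I1394G (-0.80 ± 0.17, adjusted p = 0.0129) and 125 and 141 CPM with NaCr (-0.73 ± 0.17, adjusted p = 0.0332), below 233 and 207 CPM in controls. Eif2d, at 124 and 159 CPM (-0.77, adjusted p = 0.0426), and Eif4g2, at 624 and 662 CPM (-0.70, adjusted p = 0.0475), were lower with I1394G. Without any 1 of the control or treated libraries none of these calls held. With only the libraries compared in the fit 27 and 7 members were called with I1394G and NaCr. These 2 counts are given without the share of all genes called in that fit, so nothing is read from them about the members. Markers moved with these comparisons too. Cumulus and granulosa markers summed to 54.8 to 64.9 CPM with I1394G and 48.4 to 71.1 CPM with NaCr, above the late 8-cell siRNA and control libraries, with 1 of 6 tested called higher than in controls in each. These sums came mostly from Amhr2, at 1226 and 1230 counts with I1394G and 712 and 567 counts with NaCr. Against siRNA embryos, 1 of the 6 tested was higher and 1 lower in each group. The median log2 fold change of the 6 against siRNA was -3.06 with I1394G and -2.79 with NaCr, the opposite direction to the sums. Tnfaip6, for example, had 26 and 230 counts in siRNA libraries, 18 and 6 with I1394G and 6 and 2 with NaCr. Late 2-cell markers summed to 18.3 to 38.8 CPM with I1394G and 3.76 to 75.2 CPM with NaCr. Of the 10 preimplantation embryo markers 5 were higher with I1394G and 6 with NaCr than in siRNA embryos. The part of these differences in the results was not tested.

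Genes around the initiation factors were followed in 5 lists, and those with the smallest adjusted p are named. Beside their counts, 7.77%, 8.21% and 13.6% of all genes were higher and 7.25%, 8.3% and 14.3% lower in siRNA embryos at the 4-cell, early 8-cell and late 8-cell stages. Of 9 genes of eIF2 phosphorylation, 2 were higher and 0 lower at the late 8-cell stage in siRNA against control embryos, and 1 was higher and 1 lower at each of the 4-cell and early 8-cell stages. Impact, whose product restrains the eIF2 kinase Gcn2, rose at all 3 stages. It went from 156 and 155 to 531 and 617 CPM at the 4-cell stage (log2 fold change 1.88, adjusted p = 0.000168), from 145 and 170 to 331 and 630 CPM at the early 8-cell stage (1.61, adjusted p = 0.000287) and from 134 and 132 to 638 and 423 CPM at the late 8-cell stage (1.99, adjusted p = 3.01e-05). It was lower with I1394G (-0.87, adjusted p = 0.0289) and NaCr (-0.90, adjusted p = 0.0179) than in siRNA embryos, and higher in both than in controls (1.13, adjusted p = 0.0164, and 1.10, adjusted p = 0.028). Between late 2-cell and 4-cell controls 1 gene of this list rose and 5 fell, where 27% of all genes rose and 34.2% fell.

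Of 19 genes that control eIF4F and bind mRNA ends, 0 were higher and 4 lower at the 4-cell stage, 0 and 6 at the early 8-cell stage and 2 and 5 at the late 8-cell stage. Pabpc4, a poly(A)-binding protein gene, fell at all 3, by 1.31, 1.47 and 1.79 on the log2 scale, at the late 8-cell stage from 328 and 270 to 61.1 and 110 CPM (adjusted p = 0.000124). It was higher than in siRNA embryos with I1394G (1.37, adjusted p = 0.00376) and NaCr (1.54, adjusted p = 0.000975). Paip2b, an inhibitor of poly(A)-binding protein, fell from 278 and 236 to 104 and 99.5 CPM at the 4-cell stage (-1.33, adjusted p = 0.0016) and from 214 and 342 to 68.8 and 90.2 CPM at the early 8-cell stage (-1.81, adjusted p = 9.55e-05). With I1394G and with NaCr 3 of the 19 were higher and 1 lower than in siRNA embryos. Of all genes 6.19% and 8.77% were higher and 4.58% and 6.57% lower in these 2 comparisons. Between late 2-cell and 4-cell controls 9 of the 19 rose and 4 fell, where 27% of all genes rose and 34.2% fell. Of the 2 genes of hypusine synthesis on eIF5A, Dhps, the first enzyme, fell from 102 and 126 to 38.0 and 48.6 CPM at the late 8-cell stage (-1.39, adjusted p = 0.000322). It was at 98.5 and 98.7 CPM with I1394G (1.18 against siRNA, adjusted p = 0.004) and 104 and 103 CPM with NaCr (1.25, adjusted p = 0.00161).

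Of 8 genes of scanning, reinitiation and recycling, 1 was higher and 1 lower at the 4-cell stage. At the early 8-cell stage 0 were higher and 2 lower, and at the late 8-cell stage 0 and 3. Between late 2-cell and 4-cell controls 6 of the 8 rose and 0 fell, where 27% of all genes rose and 34.2% fell. Bzw2, a mimic of eIF5, fell at all 3 later stages in siRNA embryos, by 1.03, 1.33 and 0.88 on the log2 scale. Of 12 elongation and termination genes, 2, 2 and 1 were higher and 1, 3 and 7 lower at these stages. Nothing is read from the 4-cell counts, where 7.77% of all genes were higher and 7.25% lower. Eef2, the translocation factor, fell at the late 8-cell stage from 869 and 794 to 306 and 369 CPM (-1.30, adjusted p = 0.000103). Eef1e1, which is on this list by its name alone, fell there from 564 and 596 to 204 and 218 CPM (-1.46, adjusted p = 8.32e-05). With I1394G 4 of the 12 were higher and 0 lower than in siRNA embryos, where 6.19% of all genes were higher and 4.58% lower. With NaCr 5 were higher and 1 lower, where 8.77% of all genes were higher and 6.57% lower. Between late 2-cell and 4-cell controls 9 of the 12 rose and 1 fell, beside the 27% and 34.2% of all genes. Eef1g, a subunit of the elongation factor eEF1, went from 15.7 and 11.1 to 713 and 455 CPM (5.44, adjusted p = 2.93e-11). In late 2-cell embryos 0 genes of any of the 5 lists were called between siRNA and control embryos by edgeR.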

How the data were processed

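Gene counts and FPKM values were deposited by the authors for 20 libraries of mouse embryos, in 10 groups of 2. The submitters' processing notes list, with no roles, HISAT2 2.2.1, Cufflinks 2.2, cutadapt 4.1, bcl2fastq 2.20.0.422 and, as the build, mm9, without settings, and whether counting used strand is not given in the sources used here. The deposited counts were fitted with edgeR 4.0.16 in R 4.3.3 (TMM factors, filterByExpr, quasi-likelihood test, two-sided, 1 fit of all 20 libraries), with Benjamini-Hochberg adjustment over 16603 genes and a call at an adjusted p under 0.05. CPM values use TMM-scaled library sizes, and SE is the standard error of a log2 fold change. The authors' FPKM values were used for levels between genes and in limma 3.58.1 on log2(FPKM + 1). DESeq2 1.42.0, DESeq2 size factors, no filter, a replicate block, only the libraries compared and leaving out each library were further alternatives. Library totals, and limma without an FPKM column that did not match its counts, were chosen after seeing the data. The tests were checked on simulated data.

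The members, the 5 pathway lists and the marker lists were chosen with earlier results of these data known. Members given with values were up to 4 that rose and 4 that fell per comparison by adjusted p, provided the higher group reached 10 CPM, and a fixed set of 20 for their roles. Eif2b2, Eif2b4, Eif3e, Eif3k, Eif4a3, Eif4a3l1, Eif4e2, Eif4ebp3 and the other genes outside this rule were chosen after their values were seen. From the pathway lists up to 3 genes per comparison were named by adjusted p.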

Additional observations from a re-analysis of the deposited data

Results flagged for a closer look

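The log2 difference between siRNA and control embryos varied between the 4 stages in 18 of 49 members, by edgeR's joint quasi-likelihood test of the 3 interaction terms. Eif3d had the smallest adjusted p (0.00149), with log2 fold changes of 0.53, 0.00, -0.06 and -1.20 from the late 2-cell to the late 8-cell stage. Among members of the ribosome-bound complexes, adjusted p was 0.00677 for Eif3m, 0.0213 for Eif3a and 0.0409 for Eif3l. Among the eIF2 and eIF2B genes it was 0.00802 for Eif2d, 0.00922 for Eif2s2, 0.011 for Eif2b5, 0.0186 for Eif2b4 and 0.0252 for Eif2b3. For the eIF4 factors it was 0.00704 for Eif4a1, 0.00864 for Eif4h, 0.0103 for Eif4e3, 0.0106 for Eif4b, 0.0137 for Eif4a2 and 0.0144 for Eif4e1b. It was 0.0222 for Eif5b, 0.00857 for Eif5a and 0.00926 for Eif6. With library totals in place of TMM factors 11 members passed this test. Leaving out 1 library gave 12 without late 8-cell control replicate 1 and 27 without 4-cell control replicate 1, and Eif3a lost its call without any of 5 libraries.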

How the results depend on the processing

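Counts of called members moved by more than 1.5 times in these settings. The counts in this paragraph stand without those of all genes, so they show only how the number of called members moved. With DESeq2 size factors I1394G against control gave 2, and with no low-count filter the step from 4-cell to early 8-cell gave 2. Library totals gave 3 at the early 8-cell stage, 18 at the late 8-cell stage, 11 in the joint test and 2 for I1394G against control. The DESeq2 test gave 1 at the late 2-cell stage, 13 at the early 8-cell stage and 20 from early to late 8-cell. limma on FPKM gave 1, 3, 0 and 13 at the 4 stages, 11 for their mean, 2 in the joint test, 3 and 9 for I1394G and NaCr against siRNA and 2 for I1394G against control; without the unmatched column it gave 1 at the early 8-cell stage. Only the libraries compared gave 3 at the late 2-cell stage, 0 at the 4-cell stage, 7 and 11 against siRNA and 27 and 7 against control. Leaving out 1 library gave 0 at the late 2-cell stage, 4 to 11, 1 to 8 and 18 to 31 at the later stages, 17 to 25 for their mean and 12 to 27 in the joint test. It gave 5 to 16 and 8 to 17 for I1394G and NaCr against siRNA, 0 against control and between them, and 41 to 42, 0 to 3 and 6 to 9 for the 3 control steps.

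The direction turned for Eif5 at the late 8-cell stage (0.0275 with library totals, 0.0217 with limma) and over the stages (0.0066 with library totals, 0.011 with limma, 0.0235 without the unmatched column). It also turned for Eif4h at the early 8-cell stage with limma (0.07995) and for Eif4e1b without late 8-cell siRNA replicate 2 (-3.59 against control and 2.44 for NaCr against siRNA, with ranges over left-out libraries of -3.59 to 3.17 and -5.88 to 2.44); the cause was not tested. The replicate block, whose numbers do not pair the libraries (1 of 12 correlations of deviations over 0.1, from -0.036 to 0.14), gave 0, 10, 7 and 31 at the 4 stages, 23 for their mean, 21 in the joint test and 13 and 21 against siRNA. Errors were wide for members under 10 CPM, with an SE of 0.56 for Eif4ebp2 and 0.59 for Eif4ebp3 at the late 8-cell stage.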
